A study of Mus musculus with 9 samples.

Results

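The genes described here encode 9 scaffold and adhesion proteins best known from the receiving side of glutamate synapses: *Shank1*, *Shank2*, *Shank3*, *Grid2ip*, *Homer1*, *Homer2*, *Homer3*, *Dlg4* and *Elfn1*. They were taken by name from the 43808 genes of each count file, all 9 were found once, and all 9 passed the filter on low counts that left 15184 genes for testing. The names were chosen with the levels of these genes across the genotypes already known, so their levels and differences are given as a description, with calls but no p-values. The libraries were made from HCs (hair cells) of P1 mice, sorted from cochlea and vestibule, with 2 Dmdo alleles of *Mir96* (homozygous mutant), 1 Dmdo allele (heterozygous) or none (wild-type). Every mouse also carried *Atoh1*/nGFP, a nuclear green fluorescent reporter of HCs, and cells positive for it and for CD326, an epithelial surface protein, were pooled from both organs, so auditory and vestibular HCs cannot be told apart. The Dmdo line was on the C3HeB/FeJ background and was crossed to a C57BL6 reporter line, and each genotype had 3 libraries, each from a mouse with its own number.

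A HC is the sending side of its synapse: it releases glutamate onto the afferent nerve fibre, whose receptors sit in a postsynaptic density across the cleft. In brain, postsynaptic densities are built in layers, with Dlg4 (PSD-95) at the membrane binding receptors and channels, Shank proteins below it, and Homer proteins cross-linking Shank to metabotropic receptors and to the calcium stores of the cell. The same proteins also bind actin regulators and ion channels outside synapses, and *Homer2* is a known deafness gene in humans and mice. In the heterozygous and homozygous mutants, miR-96 itself is changed in its seed, bases 2 to 8, through which a microRNA pairs with its target transcripts.

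The mature mouse miR-96-5p of RefSeq (build GRCm38.p6, minus strand, chr6:30169506-30169528) is printed first because its seed defines the sites searched for in the scaffold transcripts. Its seed is in capitals, and the Dmdo allele replaces the only A of the seed (A7U, counted from 1 at the 5′ end). The 7 bases that pair with the seed are GTGCCAA for the wild-type seed and GAGCCAA for the Dmdo seed, each searched on the transcript strand.
mmu-miR-96-5p: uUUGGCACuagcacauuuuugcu

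In the longest annotated 3′ UTR (untranslated region after the stop codon) of each gene in GENCODE vM21, on GRCm38, only *Homer2* held a wild-type seed site and only *Homer1* held a Dmdo seed site. The wild-type site was present in 9.83% of the 12980 tested genes with such a UTR, and the Dmdo site in 10.4%. *Shank1*, *Shank2*, *Shank3*, *Grid2ip*, *Homer3*, *Dlg4* and *Elfn1* held neither site, in UTRs of 684 bases (*Grid2ip*) to 5463 bases (*Dlg4*). *Homer2* had the longest UTR of the 9, at 9772 bases, against a median of 1218 bases over the genes searched, and *Homer1* had 4349 bases. Both sites are printed below with the 10 bases on either side and the 7 pairing bases in capitals, *Homer2* on the minus strand at chr7:81607045-81607071 and *Homer1* on the plus strand at chr13:93359316-93359342.
Homer2 wild-type seed site: tgtcccttagGTGCCAAgaagaaataa
Homer1 Dmdo seed site: cttaaccactGAGCCAActctccacct
Neither site was followed by an A, the base that makes the longer form of a seed match. A match in letters is a description of the transcript and no measure of binding.

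The 9 libraries held 18175317 to 34873964 counted reads. *Pou4f3*, the transcription factor that defines postmitotic HCs, was at 1050 to 1294 CPM (counts per 1000000 counted reads) in homozygous mutant and 1061 to 1159 CPM in wild-type libraries. Of 10 HC markers, 8 had a negative log2 fold change and *Espn*, which encodes the stereocilia actin bundler espin, was called lower, at 576 to 689 CPM in homozygous mutant and 1184 to 1496 CPM in wild-type libraries (log2 difference -1.18, edgeR adjusted p 0.0236). The median log2 fold change of the 10 markers was -0.18, beside -0.02 over all genes tested. Summed over the 10 markers the level was 8268 to 9755 CPM in homozygous mutant, 9912 to 13154 CPM in heterozygous and 10119 to 14386 CPM in wild-type libraries. Within that sum, *Otof* alone was at 1816 to 3081 CPM in homozygous mutant and 2915 to 6267 CPM in wild-type libraries. Reads over *Mir96* numbered 2 to 5 in homozygous mutant, 0 to 299 in heterozygous and 2 to 526 in wild-type libraries, and such counts do not show which allele was transcribed. Wild-type 59 and homozygous mutant 46 had the lowest quality weights in limma-voom (0.548 and 0.602), and results are also given without them. The weights ran on without a clear gap, with heterozygous 45 next at 0.738 and the highest at 2.29. The study's methods name a wild-type and a homozygous mutant sample of lower RNA integrity without their mouse numbers, so whether these were the same libraries cannot be told. Fewer HCs of one kind and less RNA per HC cannot be told apart in such bulk libraries. By the study's methods the number of sorted HCs also differed by genotype. It was lowest in homozygous mutant samples, with a range that overlapped the wild-type one, and it was not modelled.

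Of the 9 scaffold genes, *Shank2*, *Grid2ip*, *Elfn1* and *Dlg4* were called lower in homozygous mutant than in wild-type HCs and none was called higher. A call required a false discovery rate under 10% in edgeR's quasi-likelihood test over all 15184 genes and a fold change above 1.5. Of all tested genes, 0.915% were called lower and 0.237% higher (139 and 36 genes, or 98 and 48 with scaling by library totals), and no inference is drawn from the members' share because the members were chosen on these levels. *Shank1*, *Shank3* and *Homer1* also had negative fold changes without a call, and *Homer2* and *Homer3* had positive ones without a call. The median log2 fold change of the 9 was -1.45, beside -0.02 over all genes tested.

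*Shank2*, one of the large scaffold proteins that join receptor complexes to the actin cytoskeleton, was the best covered of its family. The gene is on chromosome 7 of GRCm38 (144001928 to 144424494, plus strand). It had 83.3, 149 and 140 CPM in homozygous mutant libraries 43, 46 and 47, then 211, 236 and 301 CPM in heterozygous libraries 45, 48 and 51, and 292, 312 and 357 CPM in wild-type libraries 44, 55 and 59. The homozygous mutant libraries lay below every other library, while the highest heterozygous library overlapped the wild-type ones. The log2 fold change of homozygous mutant over wild-type was -1.45 (standard error 0.28), a fitted level 2.73-fold lower.

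*Shank3*, another member of the family, was at 10.1, 16.1 and 5.17 CPM in homozygous mutant libraries, 9.64, 26.4 and 28.6 CPM in heterozygous libraries and 19.3, 26.9 and 27.6 CPM in wild-type libraries, in the same order of mice. Its homozygous mutant values lay below its wild-type values, the heterozygous values overlapped both, and the log2 fold change of -1.32 had a standard error of 0.72. *Shank1*, the third family member, was at 2.37, 13.9 and 0.291 CPM in homozygous mutant libraries, 0.170, 22.8 and 13.3 CPM in heterozygous libraries and 32.7, 31.2 and 15.1 CPM in wild-type libraries. Heterozygous 45 and homozygous mutant 47 held only 5 and 9 *Shank1* reads, and its log2 fold change of -2.32 had the widest standard error of the 9, at 1.31. *Shank2* made up 83.2% to 96.3% of the reads of the 3 *Shank* genes in homozygous mutant libraries, 82.7% to 95.6% in heterozygous and 84.3% to 89.3% in wild-type libraries.

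*Grid2ip* encodes delphilin, a PDZ and formin homology protein known from the postsynaptic side of Purkinje cell synapses. It is on chromosome 5 (143357338 to 143392152, plus strand). It was at 88.8, 57.8 and 65.7 CPM in homozygous mutant libraries, 82.7, 207 and 148 CPM in heterozygous libraries and 146, 269 and 225 CPM in wild-type libraries. All homozygous mutant libraries were below all wild-type ones, and heterozygous 45 was among the homozygous mutant values. The log2 fold change was -1.68 (standard error 0.34), which was the largest among the 4 called members. An antisense gene, *Gm20635*, overlaps 645 bases of its exons, and no source used here states whether reads were counted by strand.

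*Elfn1*, a leucine-rich repeat membrane protein that in brain binds metabotropic glutamate receptors of the presynaptic terminal across the cleft, is also on chromosome 5 (139907943 to 139974722, plus strand). It had 156, 61.7 and 91.2 CPM in homozygous mutant libraries, 161, 142 and 121 CPM in heterozygous libraries and 297, 213 and 279 CPM in wild-type libraries. Here the heterozygous libraries separated from wild-type rather than from homozygous mutant, and the highest homozygous mutant library, 43, lay within the heterozygous range. The log2 fold change of homozygous mutant over wild-type was -1.45 (standard error 0.31).

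*Dlg4*, which encodes PSD-95, lies on chromosome 11 (70016942 to 70047522, plus strand). It was at 66.7, 84.7 and 87.8 CPM in homozygous mutant libraries, 103, 188 and 155 CPM in heterozygous libraries and 124, 239 and 166 CPM in wild-type libraries. The homozygous mutant libraries were below every library of the other genotypes, and the heterozygous and wild-type ranges overlapped. Its log2 fold change of -1.23 (standard error 0.31) was the smallest of the 4 called. The *Dlg4* call was lost under 13 of 21 alternatives, among them scaling by library totals (log2 fold change -1.14) and the fit of the compared genotypes alone (-1.23).

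The 3 *Homer* genes, whose proteins cross-link Shank, did not share a direction, and none was called. *Homer1* was at 26.8, 1.54 and 29.2 CPM in homozygous mutant libraries, 40.1, 21.5 and 38.3 CPM in heterozygous libraries and 41.4, 55.8 and 90.004 CPM in wild-type libraries. Homozygous mutant 46 held 28 *Homer1* reads, where the other 8 libraries held 717 to 1771, and the log2 fold change was -1.81 (standard error 0.71). *Homer2* was at 87.2, 61.8 and 142 CPM in homozygous mutant libraries, 100, 76.5 and 106 CPM in heterozygous libraries and 108, 52.0 and 82.4 CPM in wild-type libraries, and the genotypes overlapped throughout. Its log2 fold change was 0.18 (standard error 0.36) and turned negative under 3 of 21 alternatives. *Homer3* was at 38.7, 55.5 and 20.9 CPM in homozygous mutant libraries, 35.8, 25.6 and 26.6 CPM in heterozygous libraries and 25.8, 23.9 and 11.0 CPM in wild-type libraries, a log2 fold change of 0.85 (standard error 0.55) with overlapping ranges. Genes on the opposite strand also share exon bases with *Homer3* (*Ddx49*, 874 bases), *Homer2* (*Gm44570*, 525 bases), *Shank1* (*1700008O03Rik*, 339 bases) and *Shank3* (*Gm15609*, 271 bases), so the same doubt about strand holds for them.

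**Figure D1:**
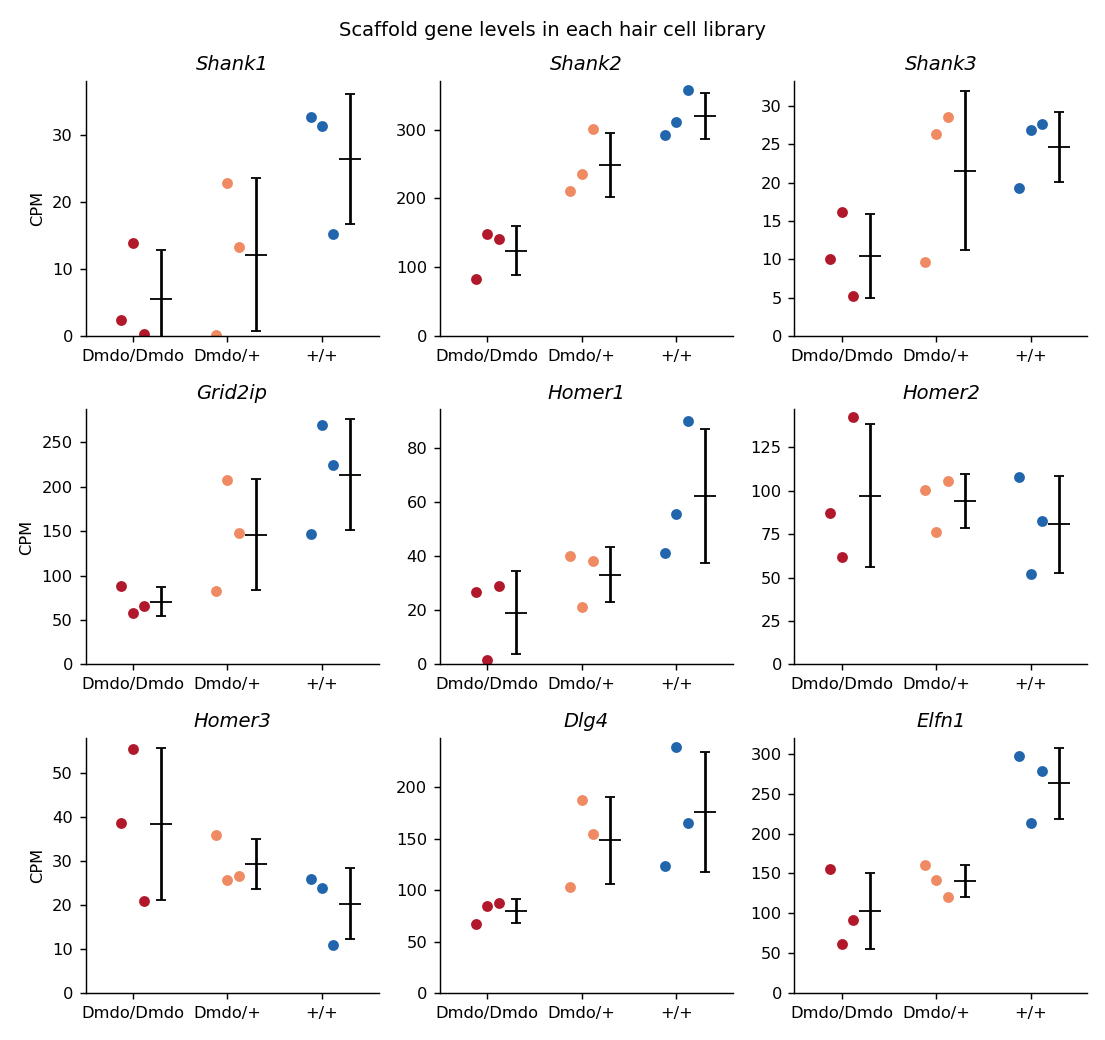
CPM of each scaffold gene in the 9 hair cell libraries, with homozygous mutant (Dmdo/Dmdo), heterozygous (Dmdo/+) and wild-type (+/+) libraries as points and the mean with SD (n = 3) as bars beside them, each panel with its own axis from 0 (the lower *Shank1* bar is clipped there). *Shank2* at 83.3 to 149 CPM in Dmdo/Dmdo and 292 to 357 CPM in +/+ libraries shows the widest gap between those genotypes, and *Homer2* and *Homer3* overlap.

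For 7 of the 9 genes every homozygous mutant library was below every wild-type library, a pattern found in 7.72% of all tested genes and, for these members, part of what they were chosen on. For *Homer1* and *Elfn1* every heterozygous library was below every wild-type library, which held for 4.11% of tested genes. For *Shank2* and *Dlg4* every homozygous mutant library was below every heterozygous library, which held for 7.44% of tested genes.

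Between heterozygous and wild-type HCs none of the 9 was called, and neither was any other gene (0% of those tested). In that contrast 686 genes had an unadjusted p under 0.05 in edgeR, and over all genes DESeq2 called 45 and limma-voom 1, with no member among them. The log2 fold changes of heterozygous over wild-type were -0.99 for *Elfn1* (standard error 0.31), -0.63 for *Grid2ip* (0.33), -0.46 for *Shank2* (0.27) and -0.33 for *Dlg4* (0.31). Between homozygous mutant and heterozygous HCs, 0.00659% of genes were called (1 gene) and none of the members, with 1030 genes under an unadjusted p of 0.05. DESeq2 and limma-voom each called 1 member there (*Shank2*), among 147 and 151 genes. The log2 fold changes of homozygous mutant over heterozygous were -0.99 for *Shank2* (standard error 0.27), -1.05 for *Grid2ip* (0.34), -0.89 for *Dlg4* (0.31) and -0.45 for *Elfn1* (0.31).

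The heterozygous HCs were placed between the other genotypes by dividing their difference from wild-type by that of the homozygous mutant, on mean log2 CPM, where 0 is the wild-type level and 1 the homozygous mutant level. *Dlg4* stood at 0.28, *Shank2* at 0.31, *Grid2ip* at 0.42 and *Elfn1* at 0.65. Of the members not called, *Shank3* stood at 0.29, *Homer1* at 0.38 and *Shank1* at 0.76. *Homer3* and *Homer2*, with positive fold changes, stood at 0.63 and at 1.12, the latter beyond the homozygous mutant level on this measure only. In the edgeR fit the log2 fold change of *Homer2* over wild-type was 0.13 in heterozygous and 0.18 in homozygous mutant HCs. The positions of *Shank1* and *Homer1* also lean on libraries with few reads. These were heterozygous 45 (5 *Shank1* reads), homozygous mutant 47 (9 *Shank1* reads) and homozygous mutant 46 (28 *Homer1* reads). No test separated these positions. In the fit on the number of Dmdo alleles, which uses the same libraries, the 4 members called were the ones called between homozygous mutant and wild-type HCs, all falling, where 1.34% of tested genes fell and 0.435% rose. With limma-voom 5 members were called in that fit, *Shank1* being the other one, at a slope of -2.25. The slopes per allele were -0.73 for *Shank2* (standard error 0.14), -0.84 for *Grid2ip* (0.17), -0.72 for *Elfn1* (0.15) and -0.61 for *Dlg4* (0.16).

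**Figure D2:**
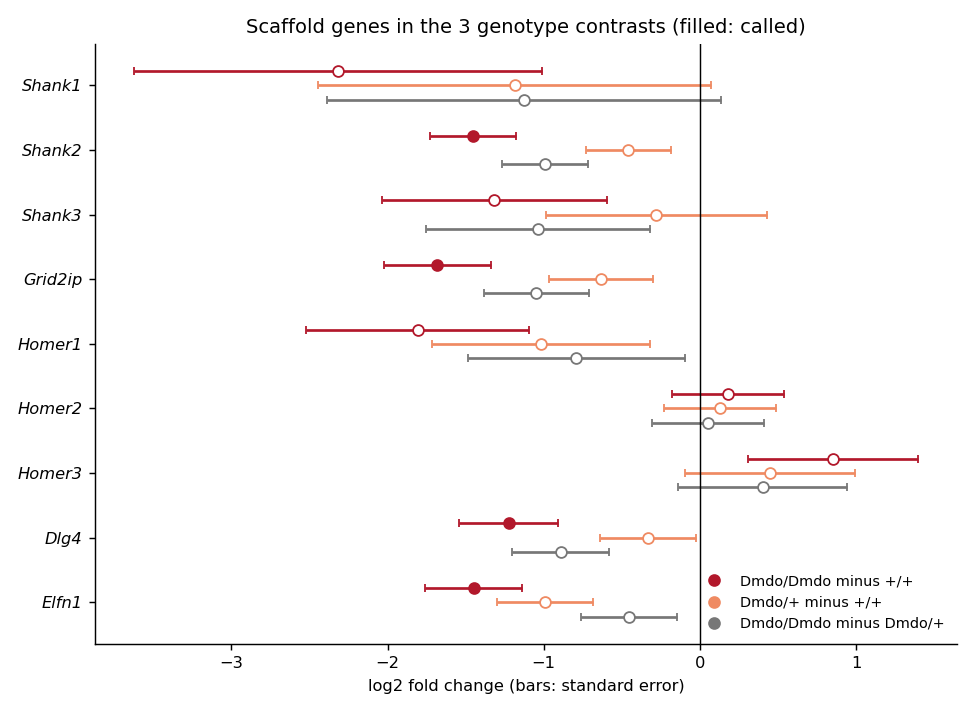
Log2 fold changes with their standard errors in the 3 genotype contrasts, one row per scaffold gene, with filled points for calls and open points for no call. The 4 filled points are *Shank2*, *Grid2ip*, *Dlg4* and *Elfn1* in Dmdo/Dmdo minus +/+, and the bars of *Shank1* are the widest.

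Per kilobase of the transcript with the longest coding sequence, the levels in wild-type HCs ran in the order *Elfn1* (68.7 ± 11.6 CPM per kb, SD, n = 3), *Grid2ip* (55.8 ± 16.3), *Dlg4* (51.6 ± 17.2), *Homer2* (49.4 ± 17.1), *Shank2* (35.6 ± 3.7), *Homer1* (14.6 ± 5.8), *Homer3* (8.28 ± 3.31), *Shank3* (3.34 ± 0.62) and *Shank1* (2.68 ± 0.99). Neighbours in that order overlapped over the 3 libraries except at 2 steps, below *Shank2* and below *Homer3*. The order depends on the length used. With all annotated exons in place of that transcript, *Homer2* was at 6.39 and *Dlg4* at 13.3 CPM per kb, below *Shank2* at 29.7 CPM per kb, because their exons add up to 12.6 and 13.2 kb against 1.63 and 3.41 kb for the transcript. *Elfn1* stayed first on both scales, at 63.1 CPM per kb of all exons. In homozygous mutant HCs *Homer2* was first per transcript kb, at 59.4 ± 25.1 CPM per kb, and *Elfn1* second, at 26.9 ± 12.6.

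Glutamate receptors, which these scaffolds hold in brain, were detected in part: of 25 receptor subunits, 14 passed the filter on low counts and 7 had no read. Of 37 genes for glutamate receptors and their auxiliary subunits, 22 passed the filter on low counts and 10 had no read in any library, among them *Gria1* (an AMPA receptor subunit), *Grin2a* and *Grin2b* (NMDA receptor subunits), *Grm5* (a metabotropic partner of Homer) and *Grm6* (a partner of Elfn1 in retina). A count of 0 allows up to 3 reads, 0.0860 to 0.165 CPM depending on the library, and covers counting error only. *Grm7*, a partner of Elfn1 in brain, was at 0 to 1.83 CPM in homozygous mutant and 0.0894 to 6.25 CPM in wild-type libraries.

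Of the 25 receptor subunits, the highest in wild-type HCs per transcript kb was the kainate receptor subunit *Grik5*, at 28.0 ± 13.2 CPM per kb (SD, n = 3), below the means of 5 of the 9 scaffolds. *Grm4*, the next per kb at 9.25 ± 9.62, was at 0.495 to 5.59 CPM in homozygous mutant and 6.48 to 92.0 CPM in wild-type libraries. Its log2 difference was -3.86, with an edgeR adjusted p of 0.120. Of the 12 auxiliary subunits, which assist the assembly and gating of AMPA or kainate receptors, *Cnih2* was highest, at 172 ± 31.2 CPM per kb. *Cnih2* was at 119 to 148 CPM in homozygous mutant and 196 to 277 CPM in wild-type libraries, with a log2 difference of -0.86 ± 0.27 (standard error) and an edgeR adjusted p of 0.185. *Cnih3*, next in level per kb, was at 0.935 to 10.1 CPM in homozygous mutant and 21.3 to 50.4 CPM in wild-type libraries, with a log2 difference of -2.61 ± 0.79 (standard error) and an edgeR adjusted p of 0.154. The ranges of *Cnih2* and of *Cnih3*, like those of *Grm4*, were apart without a call. None of the 22 tested genes of the list was called in either direction in edgeR. Of them 16 had a negative log2 fold change, and the median was -1.40, beside -0.02 over all genes. The paper, using DESeq2 with the same thresholds, lists *Grm4*, *Cnih2*, *Cnih3* and *Shisa6* among its downregulated genes. Calls of this list in the other fits are not given here.

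**Figure D3:**
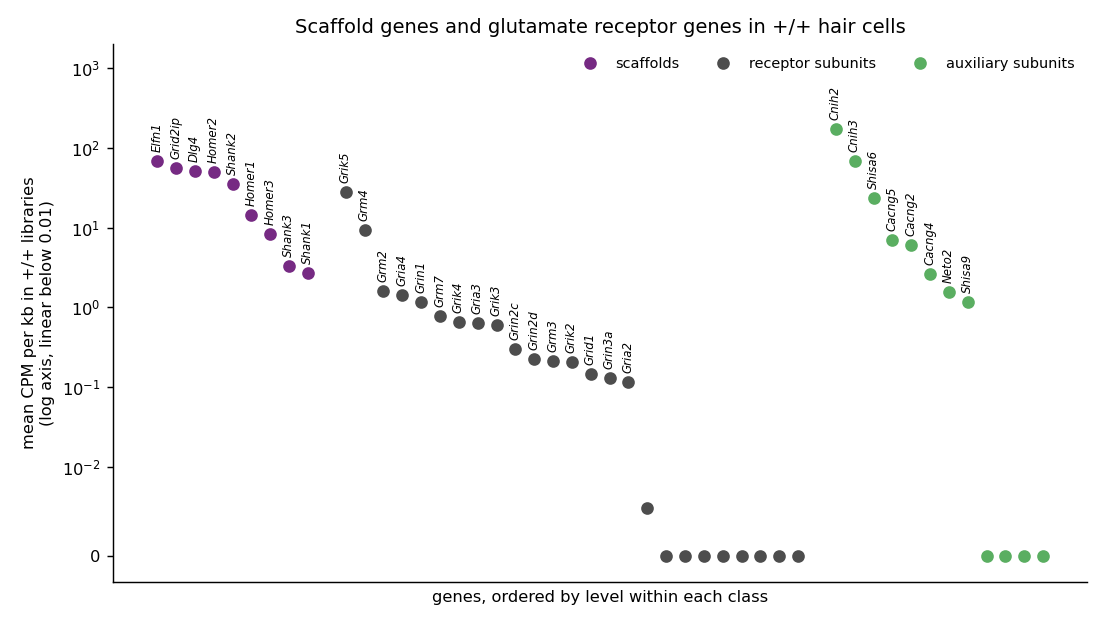
Mean level in the 3 wild-type (+/+) libraries, in CPM per kb of transcript on a log axis that is linear below 0.01, for the 9 scaffold genes, 25 glutamate receptor subunits and 12 auxiliary subunits, each class ordered by level and genes below 0.01 left without a name. The scaffolds lie between 2.68 and 68.7 CPM per kb, while among receptor subunits *Grik5* (28.0) and *Grm4* (9.25) are highest and 8 are at 0 in these libraries.

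Relatives and binding partners of the scaffolds had no call in edgeR. Of 18 related scaffold genes, among them the other *Dlg* genes, the *Dlgap* and *Magi* families and *Elfn2*, 17 were tested and 13 had a negative log2 fold change, with a median of -0.57. The 2 highest per kb were *Pick1*, a PDZ protein of AMPA receptor trafficking, and *Dlgap4*, which links Dlg4 to Shank proteins. *Pick1* was at 213 ± 40.1 CPM in homozygous mutant and 297 ± 69.3 CPM in wild-type HCs (SD, n = 3), with a log2 difference of -0.57 ± 0.27 (standard error) and an edgeR adjusted p of 0.377. *Dlgap4* was at 181 ± 60.5 CPM in homozygous mutant and 258 ± 72.2 CPM in wild-type HCs, with a log2 difference of -0.59 ± 0.31 (standard error) and an edgeR adjusted p of 0.422.

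Of 21 binding partners 20 were tested, 12 with a negative log2 fold change and a median of -0.24. *Cacna1d*, the calcium channel of the HC ribbon synapse and a partner of Shank proteins, was at 215 ± 68.3 CPM in homozygous mutant and 351 ± 95.4 CPM in wild-type HCs (SD, n = 3), with a log2 difference of -0.80 ± 0.28 (standard error) and an edgeR adjusted p of 0.215. *Arhgef7*, a Rac exchange factor that binds Shank proteins, was at 176 ± 29.2 CPM in homozygous mutant and 190 ± 56.7 CPM in wild-type HCs (SD, n = 3), with a log2 difference of -0.19 ± 0.27 (standard error) and an edgeR adjusted p of 0.840.

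On the sending side, 11 of 12 genes listed for the ribbon synapse were tested and 2 were called lower, *Gipc3* and *Rimbp2*. The list was drawn up by name, and whether *Gipc3* acts at the ribbon synapse was not tested. Over all tested genes 0.915% were called lower, and no inference is drawn from the share of this list, chosen with earlier results known. *Gipc3*, a PDZ adaptor and deafness gene, was at 85.2 ± 3.4 CPM in homozygous mutant and 294 ± 106 CPM in wild-type HCs (SD, n = 3), with a log2 difference of -1.87 ± 0.32 (standard error) and an edgeR adjusted p of 0.00846. *Rimbp2*, which ties calcium channels to release sites, was at 72.5 ± 18.5 CPM in homozygous mutant and 178 ± 42.7 CPM in wild-type HCs (SD, n = 3), with a log2 difference of -1.39 ± 0.31 (standard error) and an edgeR adjusted p of 0.0440. *Otof* (otoferlin, the calcium sensor of release) and *Slc17a8* (the vesicular glutamate transporter) were highest per kb without a call, with log2 fold changes of -1.07 (standard error 0.30, edgeR adjusted p = 0.125) and -0.71 (standard error 0.25, edgeR adjusted p = 0.222). In the paper's DESeq2 analysis *Otof*, *Slc17a8* and *Cacna1d* are among the downregulated genes, so their lack of a call holds for the edgeR fit. The median of this list was -0.71.

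The genes with the pattern most like 3 of the scaffolds were found by Pearson's r of log2 CPM over the 9 libraries, which include the genotype difference. For *Shank2* they were *Kcna10* (r = 0.977), a voltage-gated potassium channel, *Rbfox2* (0.966), an RNA-binding splicing factor, and *Gm1113* (0.962). For *Grid2ip* they were *Plekha6* (0.987), *Raver1* (0.981) and *Plxnb1* (0.973), a semaphorin receptor. For *Homer3* they were *Zfp148* (0.983), a zinc finger transcription factor, *Ndrg2* (0.966) and *Apool* (0.960). Within the scaffold genes, *Grid2ip* and *Dlg4* had r = 0.918 over all libraries and 0.752 once the genotype means were taken out, and *Shank1* and *Shank3* had 0.885 and 0.925. *Shank2* and *Elfn1* had 0.593 over all libraries and -0.794 once the genotype means were taken out. These values share libraries, depth and base composition and are descriptions.

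Base composition moved with genotype. For each library, the log2 CPM of every gene relative to its mean over the 9 libraries was fitted on GC content and length together. The GC slope, the change for each 10 points of GC content, was -0.16 to -0.15 in homozygous mutant, -0.29 to 0.14 in heterozygous and 0.07 to 0.31 in wild-type libraries. The slope per doubling of length was -0.19 to 0.005, -0.11 to 0.09 and -0.09 to 0.21 in the same order. Of the tested genes with a GC content of 60% or more, 4.36% were called lower in homozygous mutant HCs, beside 0.156% of those under 45%. The transcripts of *Shank3*, *Grid2ip* and *Shank1* had 62.4%, 61.8% and 61.4% GC, those of *Elfn1*, *Dlg4* and *Shank2* had 57.7%, 55.7% and 54.97%, and that of *Homer1* had 37.8%, where the median tested gene had 50.5%. *Homer3*, at 59.4% GC, had a positive fold change.

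With GC content and length fitted out of each library, none of the 9 was called and 50 genes were called in all. The log2 fold changes then were -1.09 for *Shank2* (standard error 0.32), -1.10 for *Grid2ip* (0.33), -1.14 for *Elfn1* (0.35) and -0.93 for *Dlg4* (0.34), while that of *Shank3* was -0.59 (0.74), that of *Homer1* was -2.13 (0.64) and that of *Homer3* was 1.29 (0.60). Over the 9 libraries, r between level and GC slope was 0.85 for *Grid2ip*, 0.81 for *Dlg4*, 0.68 for *Shank2* and 0.62 for *Elfn1*. Once genotype means were taken out, r was 0.68, 0.67, 0.11 and -0.26 in the same order. That step also takes out the part of the GC slope that moved with genotype, so GC slope and genotype cannot be told apart by it.

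**Figure D4:**
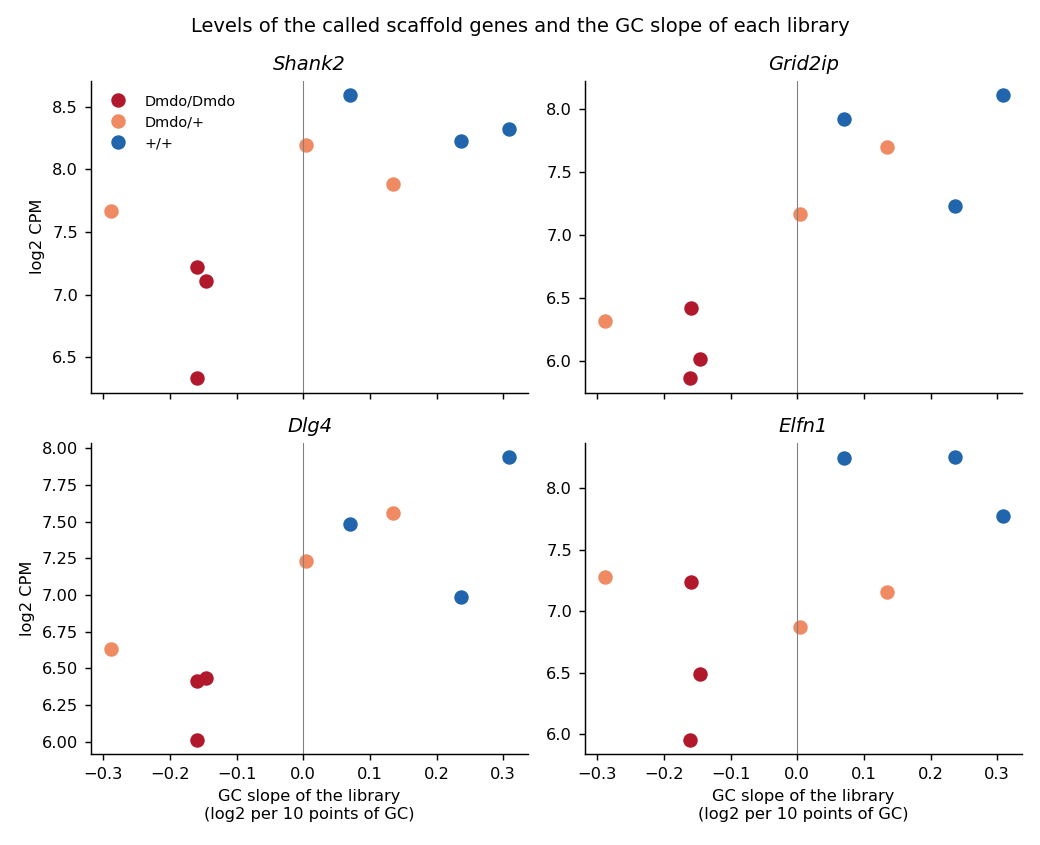
Log2 CPM of the 4 called scaffold genes against the GC slope of each library (log2 per 10 points of GC), with one point per library coloured by genotype. The Dmdo/Dmdo libraries share slopes of -0.16 to -0.15, and Dmdo/+ 45, at -0.29, has *Grid2ip* and *Dlg4* near the Dmdo/Dmdo levels but *Shank2* above them.

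Mouse numbers and sex-linked transcripts also moved with genotype. The homozygous mutant mice were numbered 43 to 47 and the wild-type mice 44 to 59, and *Xist* exceeded the Y-linked *Ddx3y* in 0 of 3 homozygous mutant, 1 of 3 heterozygous and 2 of 3 wild-type libraries. With a term that set numbers up to 47 apart from higher ones, 1 member was called (*Elfn1*, log2 fold change -1.60), and *Dlg4* and *Grid2ip* had -0.68 and -0.997. With the ratio of *Xist* to *Ddx3y* as a term none was called, and the log2 fold changes of *Shank2*, *Grid2ip*, *Elfn1* and *Dlg4* were -1.43, -1.58, -1.26 and -1.25.

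Calls changed when single libraries were left out. Leaving out a library also lowers the number of mice, so its own part in a lost call was not tested. Of the 4 calls, 4 were made without wild-type 44, 2 without wild-type 55, none without wild-type 59, 4 without heterozygous 45 or 48, 3 without heterozygous 51, and 1 without homozygous mutant 43, 46 or 47 in turn. The one member called was *Elfn1* without homozygous mutant 43, and *Shank2* without 46 or 47. Without both wild-type 59 and homozygous mutant 46 none was called, and the log2 fold changes were -1.48 for *Shank2*, -1.49 for *Grid2ip*, -1.10 for *Elfn1* and -1.29 for *Dlg4*. The 4 members kept a negative fold change under all 21 alternatives, between -1.60 and -1.09 for *Shank2*, -1.90 and -0.997 for *Grid2ip*, -1.84 and -1.10 for *Elfn1* and -1.43 and -0.68 for *Dlg4*.

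**Figure D5:**
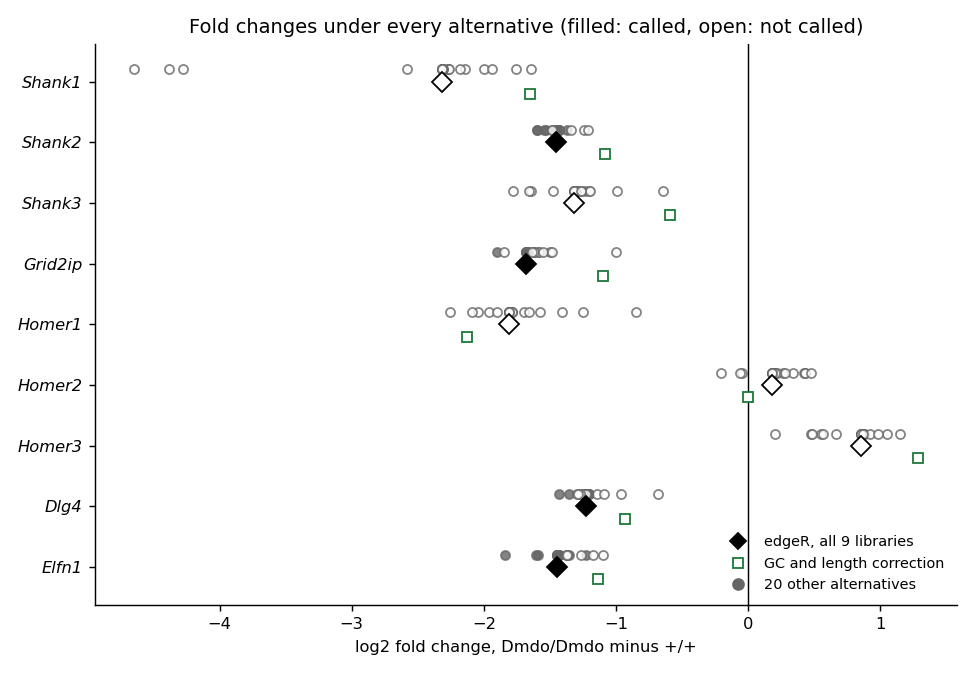
Log2 fold change of homozygous mutant over wild-type HCs for each scaffold gene under the fit of all 9 libraries (diamond), the GC and length correction (square) and 20 other alternatives (circles), filled where the gene was called. The 4 genes with filled diamonds stay left of 0 throughout, and only *Homer2* crosses it.

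Markers of other cells were measured beside the scaffolds. Ganglion neurons, whose postsynaptic side would hold several of these proteins, were measured through 16 markers, of which *Neurog1* had no read and *Eomes* had 4 reads in all. *Tubb3* reached 0.165 CPM in homozygous mutant and 14.0 CPM in wild-type libraries, and *Prph* reached 0.110 CPM in homozygous mutant and 14.4 CPM in wild-type libraries. Others reached more in homozygous mutant libraries, among them *Neurod1* (up to 11.5 CPM, against 0.0894 in wild-type), *Stmn2* (12.5 against 2.82), *Nefh* (40.6 against 19.7) and *Scg2* (38.5 against 16.0). Of the 9 tested, 3 had a negative log2 fold change, none was called and the median was 0.39. Summed over these 16, of which HCs also express *Nefl* and *Snap25*, the level was 428 to 469 CPM in homozygous mutant, 359 to 557 CPM in heterozygous and 408 to 590 CPM in wild-type libraries. The 6 Schwann cell markers summed to 124 to 340 CPM in homozygous mutant and 93.4 to 293 CPM in wild-type libraries. The 6 mesenchyme markers summed to 87.7 to 866 CPM in homozygous mutant and 170 to 319 CPM in wild-type libraries, with the highest in homozygous mutant 46. The 10 supporting cell markers summed to 1295 to 1623 CPM in homozygous mutant and 1302 to 2932 CPM in wild-type libraries. The part of these cells in the scaffold differences was not tested.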

How the data were processed

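RNA of sorted P1 HCs from 9 mice was sequenced by the authors, who per their methods aligned it to GRCm38 with HISAT2 2.0.4 and used HTSeq to count. The authors deposited raw counts for 43808 genes per library, with no normalization. Libraries were grouped by the genotype in their labels, and the mouse numbers pair no mice between genotypes. CPM is counts divided by the library's total. A gene was tested if 20 reads were reached in 2 replicates of a genotype (15184 genes), with edgeR 4.0.16 (quasi-likelihood, robust, TMM, all 9 libraries in 1 fit) and called where the Benjamini-Hochberg rate was under 10% and the fold exceeded 1.5, with no fold threshold for the trend. DESeq2 1.42.0, limma-voom (limma 3.58.1), other scalings and filters, GC, mouse number and sex terms and left-out libraries were alternatives, run in R 4.3.3. Tables were made with Python 3.11.15 and pandas 2.3.3. Transcript lengths, GC content and UTRs came from GENCODE vM21, and the GC and length correction covered the annotated genes, nearly all of those tested.

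The members and gene lists were chosen with earlier results of these data known. The genes named were all members, called genes of each list (at most 6) with the 2 highest per kb not called, and the 3 genes most like each of *Shank2*, *Grid2ip* and *Homer3*. The study's methods call the wild-type mice littermates of the mutants, but the sources used here give no litter per library, so litter was not modelled. SDs are over mice. Standard errors are the log2 fold change divided by the square root of edgeR's F value. They use a spread shared by the genotypes and moderated over all genes. Limits for counts of 0 cover counting error only. Some genes of the lists are not reported here by name.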

Additional observations from a re-analysis of the deposited data

How the results depend on the processing

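No paired analysis was possible because no mouse number is shared between genotypes. Between homozygous mutant and wild-type HCs, 4 of the 9 scaffold genes and 175 of all genes were called. The number of all genes was 966 with DESeq2, 338 with limma-voom, 562 with no filter and 61 at a false discovery rate under 5%. With the GC content and length correction, 0 members and 50 genes were called, with the mouse number term 1 and 25, with the *Xist* to *Ddx3y* term 0 and 11, and without wild-type 59 and homozygous mutant 46 together 0 and 27. Leaving out 1 library at a time gave 0 to 4 members and 22 to 739 genes. Between heterozygous and wild-type HCs, 45 genes were called with DESeq2, 1 with limma-voom, 3 with no filter, 1 with the mouse number term and 0 to 1 with 1 library left out. Between homozygous mutant and heterozygous HCs, DESeq2 called 1 member and 147 genes, limma-voom 1 and 151, no filter 69 genes, a fit of those genotypes alone 3, the GC correction and the mouse number term 0 each, and leaving out 1 library 0 to 6. For the trend, 4 members and 270 genes were called. The number of genes was 1038 with DESeq2, 783 with limma-voom, 466 with no filter and 93 at a false discovery rate under 5%. With the GC correction 0 members and 60 genes were called, with the mouse number term 2 and 59, with the *Xist* to *Ddx3y* term 0 and 14, without both libraries 0 and 21, and with 1 library left out 2 to 4 and 39 to 929. *Homer1* was called lower with no filter (log2 fold change -1.78). *Homer2* changed sign, with a log2 fold change of -0.044 with the mouse number term, -0.06 without wild-type 55 and -0.20 without homozygous mutant 47, and it ranged from -0.20 to 0.43 with 1 library left out. The causes were not tested. *Shank1* was called in the trend with limma-voom (slope -2.25). Of the 21 alternatives, the call between homozygous mutant and wild-type HCs was lost under 13 for *Dlg4*, 9 for *Grid2ip*, 6 for *Shank2* and 6 for *Elfn1*. Those of *Dlg4* include the false discovery rate under 5% on the same fit.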
